A study of Mus musculus with 8 samples.

Results

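The 73 genes described here encode enzymes and transporters that handle peroxides, quinones, aldehydes and foreign compounds, and they were chosen by symbol alone. The rule took symbols that begin with Gst, Ugt, Sult, Aldh, Fmo, Gpx, Prdx, Txn, Nqo, Akr or Abcb, symbols of the Ces, Sod and Adh families, cytochromes P450 whose family number does not begin with 2, and a few single genes such as Cat, Hmox1, Ephx1 and Ephx2; Hmox2 and Por, which it also names, were not analysed here. They lay on 74 of the 9607 rows of the array table, because Prdx2 had a pair of rows that were averaged, and the table named 6106 genes in all. Each array compared hearts of female C57BL/6 mice, an inbred strain with no further allele or treatment named, with hearts of male C57BL/6 mice of the same age, either 8 months or 2 months. Whole hearts of 6 animals were pooled for each sex and age, so the 4 pools give 1 biological sample of each sex at each age. Each age had 4 arrays of 1 pair of pools, which are technical repeats, with the female pool in Cy3 on replicates 1 and 3 and in Cy5 on replicates 2 and 4. All values below are log2 ratios of the female pool over the male pool, in which 1 is a 2-fold higher signal in females and a negative value is a higher signal in males.

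Phase I enzymes such as cytochromes P450, flavin monooxygenases, dehydrogenases and esterases introduce or uncover reactive groups on a molecule. Phase II enzymes such as glutathione S-transferases, glucuronosyltransferases and sulfotransferases then attach a soluble group, and ABCB transporters move many of the products or parent compounds out of the cell. In heart muscle, which respires continuously, superoxide dismutases turn superoxide into hydrogen peroxide, and catalase, glutathione peroxidases, peroxiredoxins and the thioredoxin system remove the peroxide. The transcription factor NRF2 acts on many of these genes through the antioxidant response element, and the aryl hydrocarbon receptor acts on a smaller set through the xenobiotic response element.

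The 3 largest ratios among the tested members at 2 months were those of aldehyde dehydrogenases, and the promoters of a pair of them, Aldh1a1 and Aldh1a7, are shown first because these genes are close copies with like ratios at that age. Sequences are from the RefSeq table of GRCm38.p6, which had promoter windows for 55 of the 73 members, and each gives the 250 bases before the annotated start, 5′ to 3′ on the strand of the gene. For Aldh1a1 the table held 2 windows, and the one nearest the 3′ end of the gene is shown, at chr19:20601718-20601967 on the plus strand. The Aldh1a7 window is chr19:20727557-20727806 on the minus strand, and the Cyp1b1 window, shown because Cyp1b1 was the only member that met the rule of size and sign at 8 months, is chr17:79715062-79715311 on the minus strand. Capitals mark the run of 65 bases that Aldh1a1 and Aldh1a7 share, from 94 to 30 bases before the start, and in Cyp1b1 the reverse complement of the xenobiotic response element core.
Aldh1a1: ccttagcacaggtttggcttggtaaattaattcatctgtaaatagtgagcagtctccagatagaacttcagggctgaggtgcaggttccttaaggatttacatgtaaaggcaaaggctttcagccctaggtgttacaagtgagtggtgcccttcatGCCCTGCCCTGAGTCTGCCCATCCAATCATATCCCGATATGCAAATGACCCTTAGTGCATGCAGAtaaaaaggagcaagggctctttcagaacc
Aldh1a7: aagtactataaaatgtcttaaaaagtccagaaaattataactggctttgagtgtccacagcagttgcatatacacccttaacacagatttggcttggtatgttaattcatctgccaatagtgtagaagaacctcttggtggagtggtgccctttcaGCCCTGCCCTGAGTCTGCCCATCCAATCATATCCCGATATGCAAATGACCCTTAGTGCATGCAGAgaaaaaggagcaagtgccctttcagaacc
Cyp1b1: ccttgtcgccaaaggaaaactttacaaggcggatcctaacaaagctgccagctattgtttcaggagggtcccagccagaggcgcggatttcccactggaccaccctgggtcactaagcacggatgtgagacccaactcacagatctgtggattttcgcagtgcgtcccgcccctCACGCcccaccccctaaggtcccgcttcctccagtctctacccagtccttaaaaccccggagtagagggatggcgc
In a global alignment the 2 aldehyde dehydrogenase promoters were identical in 161 of 254 columns, 63.4%, against 41.9% for Aldh1a1 and Cyp1b1 and 42.9% for Aldh1a7 and Cyp1b1. Each window was searched on both strands for TGACNNNGC, the antioxidant response element core, and for GCGTG, the xenobiotic response element core, and a stretch can hold both. The first was in 7 of the 64 member windows, 10.9%, against 10.2% of all 32851 windows in the table. The second was in 23 of the 64 member windows, 35.9%, against 28.2% of all windows. Neither motif was in the windows of Aldh1a1 and Aldh1a7, and Cyp1b1 had 1 match to GCGTG, 76 bases before the start.

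Members with a match to the antioxidant response element core were Aldh1a2, Gsta3, Gstm5, Prdx1, Sod1, Txndc11 and Txnrd1. The stretches of 4 of them are shown, as 1 member each from the conjugating, peroxide, superoxide and thioredoxin enzymes, with the match in capitals on either strand. They are Gsta3 at chr1:21240444-21240492, Prdx1 at chr4:116685446-116685494, Sod1 at chr16:90220686-90220734 and Txnrd1 at chr10:82859094-82859142, each on the plus strand.
Gsta3: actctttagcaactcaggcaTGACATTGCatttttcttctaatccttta
Prdx1: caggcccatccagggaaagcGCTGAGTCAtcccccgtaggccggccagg
Sod1: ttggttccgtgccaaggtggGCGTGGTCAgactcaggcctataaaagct
Txnrd1: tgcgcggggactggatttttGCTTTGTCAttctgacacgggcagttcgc
At 2 months the ratios were 0.46 for Gsta3, -0.54 for Prdx1, -0.091 for Sod1 and -0.0061 for Txnrd1. Those of Aldh1a2, Gstm5 and Txndc11 were -0.17, 0.068 and 0.12. The part of the motif in these ratios was not tested.

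Of the 73 members, 66 had a measured ratio on at least 3 arrays of each age and entered the tests, which ran on 7812 rows in all. At 8 months the median of the 66 was -0.046, against -0.032 over all rows tested, and from replicates 3 and 4 it was -0.014, against -0.0015. At 2 months it was 0.012, against -0.016 over all rows. The female pool was higher for 30 of the 66 members at 8 months and lower for 36, and it was higher for 36 and lower for 30 at 2 months. Over all 7812 rows it was higher for 3515 and lower for 4297 at 8 months, and higher for 3621 and lower for 4191 at 2 months. Over both ages, limma called none of the members at an adjusted p under 0.05, where it called 0.0896% of all rows, and 3 members had an unadjusted p under 0.05, 4.55% of the members against 10.4% of all rows. These were Aldh1a7, Aldh3b2 and Hmox1. The fit has n = 2 pairs of pools, 1 for each age, so a ratio that differs between the ages raises its error. The Y-linked Eif2s3y, at -1.87 at 8 months and -3.18 at 2 months, was not called, with an adjusted p of 0.115 by limma. Xist and the Y-linked Kdm5d were called, with adjusted p of 0.0244 and 0.00501 by limma. A member that was not called may therefore still differ between the sexes. At a single age there was no test across animals, so the ages are described by a size rule: a ratio at least 1.5-fold from 1, or 0.58 on the log2 scale, with the same sign on every array of that age.

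Arrays of an age did not repeat equally well. Between 6.38 and 13.9% of the values of an array were exactly 0 and were read as no measurement. On 8-month replicates 1 and 2 the ratios drifted along the order of the probes: the running median along that order had an SD of 0.51 and 0.82 on those arrays, against 0.033 to 0.072 on the other 6. Of the 66 members, 53 on replicate 1 and 61 on replicate 2 had the sign of that running median, against 29 to 35 on the other arrays. A member's 8-month mean is therefore given with its single arrays or with the mean of replicates 3 and 4. Xist, the X-inactivation RNA, was higher in the female pool and the Y-linked Kdm5d and Eif2s3y were lower on all 8 arrays, which matches the sex labels.

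**Figure D1:**
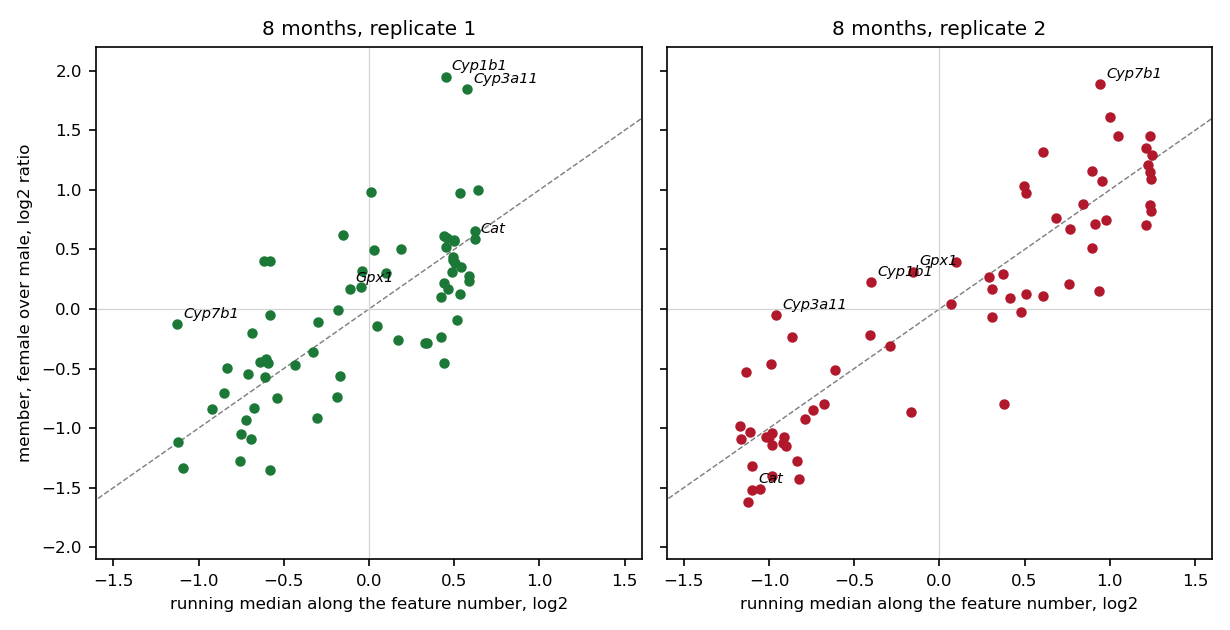
Log2 ratio of female over male for the 66 tested members (vertical axis) against the running median of all rows around the same probe (horizontal axis) on 8-month replicate 1 (left) and replicate 2 (right); the dashed line marks equality. The points spread along the line, and 53 and 61 of 66 members had the sign of the running median.

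At 8 months 5 members kept 1 sign on all 4 arrays, 7.58% against 10.6% of all rows, and at 2 months 27 did, 40.9% against 35.8% of all rows. The 5 at 8 months were Gpx1, Txnl1, Ephx2, Cyp1b1 and Abcb1b. Of the 27 at 2 months, 16 were higher and 11 lower in the female pool. Of the 2796 rows with 1 sign at 2 months among all 7812, 1379 were higher and 1417 lower. By the size rule 1 member was higher in the female pool at 8 months, Cyp1b1, where 2.98% of all rows met the rule in either direction and 1.68% were higher. At 2 months 3 members met it, Aldh1a1, Aldh1a7 and Aldh3a1, or 4.55% of the members, where 4.17% of all rows met it in either direction and 2.41% were higher. None of the 66 tested members was lower in the female pool by the size rule at either age.

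**Figure D2:**
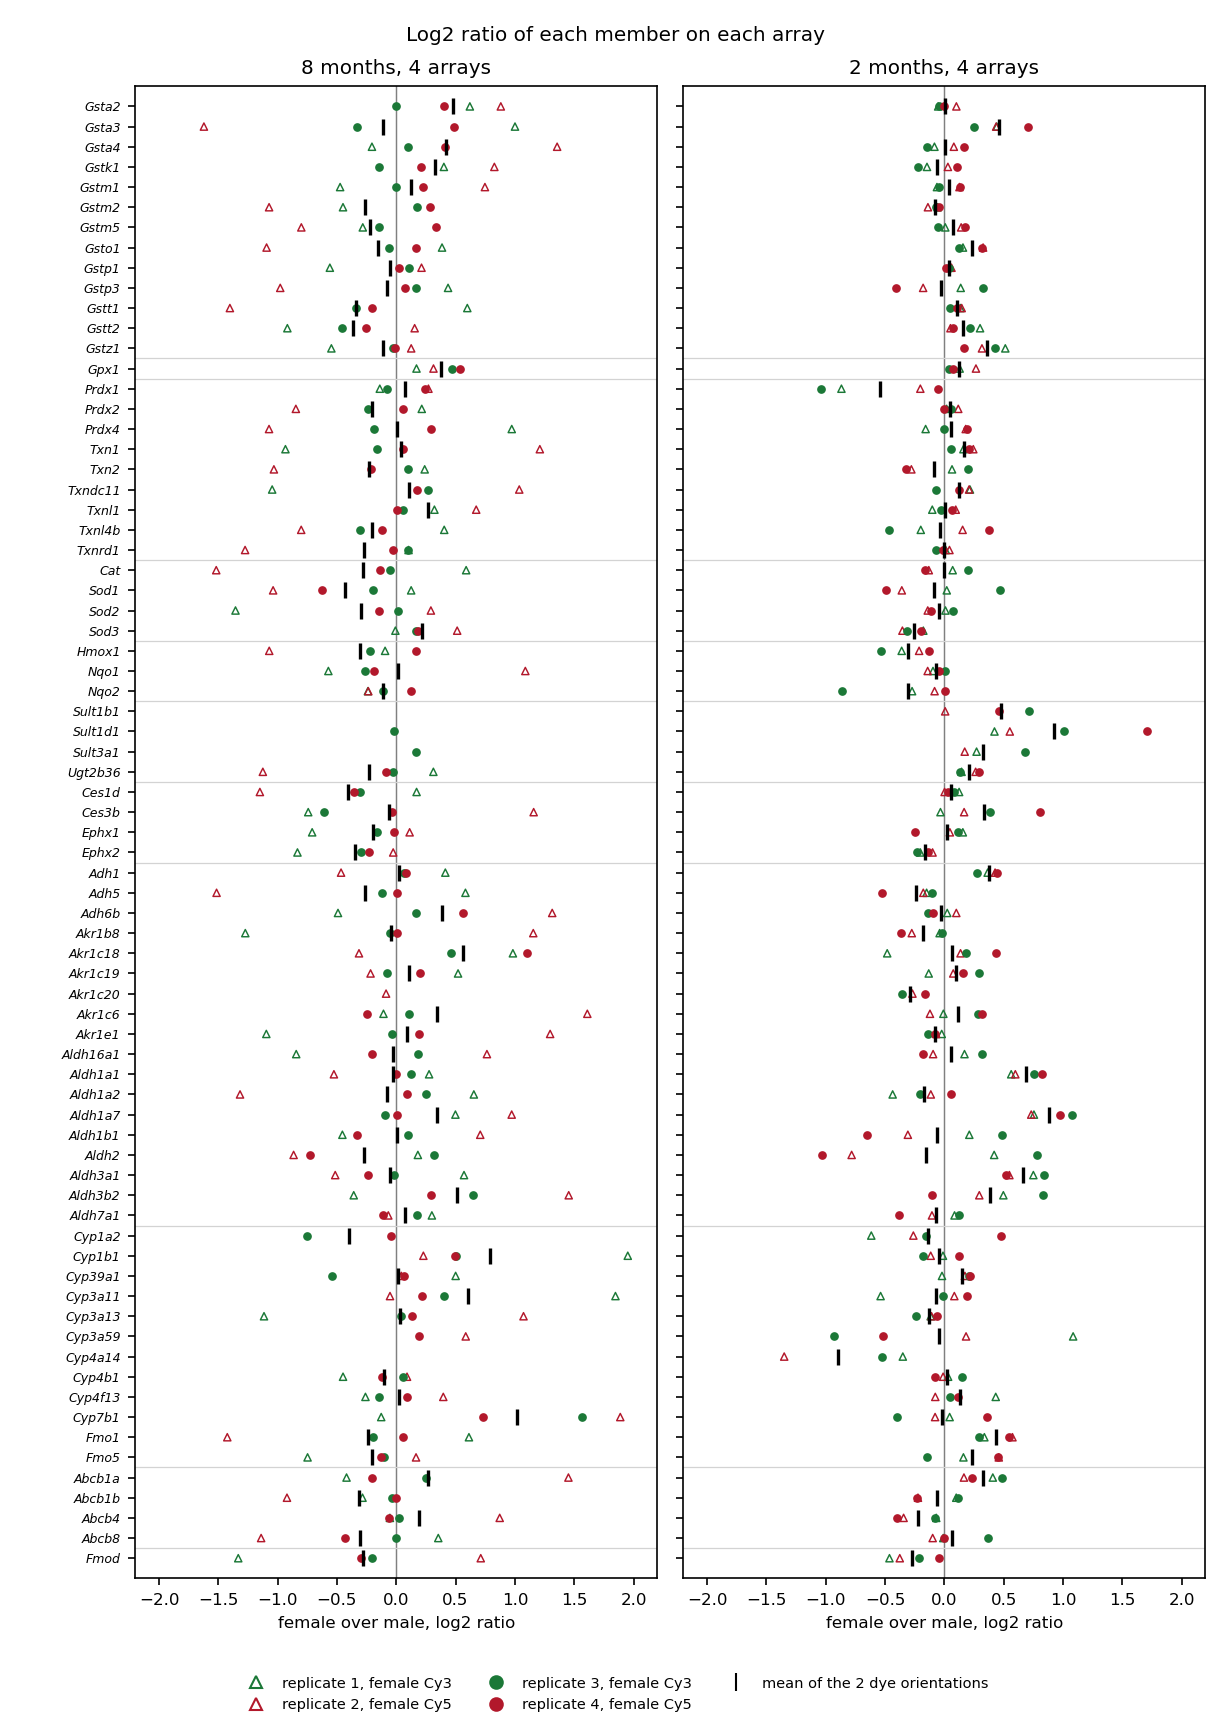
Log2 ratio of female over male (horizontal axis) for each of the 73 members (rows, with lines between roles) at 8 months left and 2 months right; each symbol is 1 array, coloured by the dye of the female pool, with triangles for replicates 1 and 2, circles for replicates 3 and 4 and a bar for the mean of both dye orientations. The triangles spread widely at 8 months, and at 2 months the arrays of Aldh1a1, Aldh1a7 and Aldh3a1 all lie right of 0.

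Among the aldehyde and alcohol dehydrogenases and aldo-keto reductases, 17 of 18 members were tested and none was called by limma over both ages. Aldh1a7, an aldehyde dehydrogenase that mice hold beside Aldh1a1 on chromosome 19, had ratios of 0.50, 0.97, -0.099 and 0.0074 on 8-month replicates 1 to 4, against 0.75, 0.73, 1.07 and 0.97 at 2 months. All 4 of its 2-month arrays were high, while at 8 months replicates 1 and 2 were high and replicates 3 and 4 lay near 0. Its ratio was 0.34 ± 0.49 at 8 months, and -0.046 from replicates 3 and 4, against 0.88 ± 0.17 at 2 months (SD, n = 4 arrays each), the last being 1.84-fold. Over both ages it stood at 0.61 ± 0.17 (SE, n = 2 pool pairs) with the lowest adjusted p of the members by limma, 0.349.

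Aldh1a1, which oxidises retinaldehyde to retinoic acid, had ratios of 0.28, -0.53, 0.12 and -0.00011 at 8 months, against 0.56, 0.60, 0.76 and 0.82 at 2 months. The arrays of the ages did not overlap: the lowest 2-month array, 0.56, was above the highest 8-month array, 0.28. It averaged -0.032 ± 0.35 at 8 months, against 0.68 ± 0.12 at 2 months, a difference of -0.72 (8 minus 2 months). Aldh3a1, known as an abundant aldehyde dehydrogenase of the cornea and stomach, had 0.57, -0.51, -0.02 and -0.24 at 8 months and 0.75, 0.55, 0.84 and 0.52 at 2 months. Its 2-month arrays were all positive and its 8-month arrays were mixed in sign, with means of -0.051 ± 0.46 at 8 months, against 0.67 ± 0.16 at 2 months. Transcripts of near-identical genes such as Aldh1a1 and Aldh1a7 can bind each other's cDNA probe, so their ratios may not be independent, and whether they did was not tested.

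No other aldehyde dehydrogenase met the size rule at 2 months. Aldh3b2 was positive on 6 of 8 arrays, with -0.36, 1.45, 0.65 and 0.29 at 8 months and 0.50, 0.29, 0.84 and -0.10 at 2 months. Its ratio over both ages was 0.44 ± 0.13, with an adjusted p of 0.361 by limma. Aldh2, the mitochondrial enzyme that clears acetaldehyde and lipid aldehydes in the heart, had 0.18, -0.87, 0.31 and -0.73 at 8 months and 0.42, -0.78, 0.78 and -1.03 at 2 months. Its sign followed the dye at both ages: it was positive wherever the female pool carried Cy3 and negative wherever it carried Cy5. The mean of both orientations was -0.27 at 8 months and -0.15 at 2 months, while the Cy5 mean minus the Cy3 mean, divided by 2, was -0.75 at 2 months. Aldh7a1, an enzyme of lysine breakdown, had 0.30, -0.067, 0.18 and -0.11 at 8 months and 0.085, -0.10, 0.12 and -0.38 at 2 months, with the same split by dye at a smaller size. Aldh1a2, the retinoic acid enzyme of the epicardium, had 0.65, -1.32, 0.25 and 0.09 at 8 months and -0.44, -0.11, -0.20 and 0.054 at 2 months, so its 8-month mean of -0.081 became 0.17 from replicates 3 and 4. The means of Aldh1b1 and Aldh16a1 lay between -0.025 and 0.0041 at 8 months, or -0.12 and -0.0092 from replicates 3 and 4, and between -0.065 and 0.053 at 2 months. Their single arrays were not near 0. At 2 months Aldh1b1 had 0.21, -0.31, 0.49 and -0.65 and Aldh16a1 had 0.17, -0.095, 0.32 and -0.18, with signs that followed the dye. The 8-month arrays ran from -0.45 to 0.71 for Aldh1b1 and from -0.84 to 0.76 for Aldh16a1.

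Adh1, the class I alcohol dehydrogenase, had 0.41, -0.47, 0.069 and 0.085 at 8 months and 0.36, 0.43, 0.28 and 0.44 at 2 months. Its 2-month arrays were all positive and close together, 0.38 ± 0.075 (SD, n = 4 arrays), but below the 1.5-fold limit. Adh5, which removes formaldehyde and S-nitrosoglutathione, went the other way at 2 months, -0.15, -0.18, -0.11 and -0.53, with 0.58, -1.51, -0.12 and 0.0068 at 8 months, and Adh6b averaged 0.39 at 8 months, 0.37 from replicates 3 and 4, and -0.027 at 2 months. Akr1c18, the 20-alpha-hydroxysteroid dehydrogenase that inactivates progesterone in mice, had 0.98, -0.31, 0.46 and 1.10 at 8 months and -0.48, 0.14, 0.18 and 0.44 at 2 months. Its 8-month value of 0.56 ± 0.64 missed the size rule, since it was under 1.5-fold and replicate 2 was negative, and replicates 3 and 4 alone averaged 0.78. The other tested aldo-keto reductases, Akr1b8, Akr1c6, Akr1c19 and Akr1e1, averaged between -0.041 and 0.34 at 8 months and between -0.18 and 0.12 at 2 months. From replicates 3 and 4 they lay between -0.068 for Akr1c6 and 0.074 for Akr1e1, and Akr1c6 was at 1.61 on 8-month replicate 2.

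**Figure D3:**
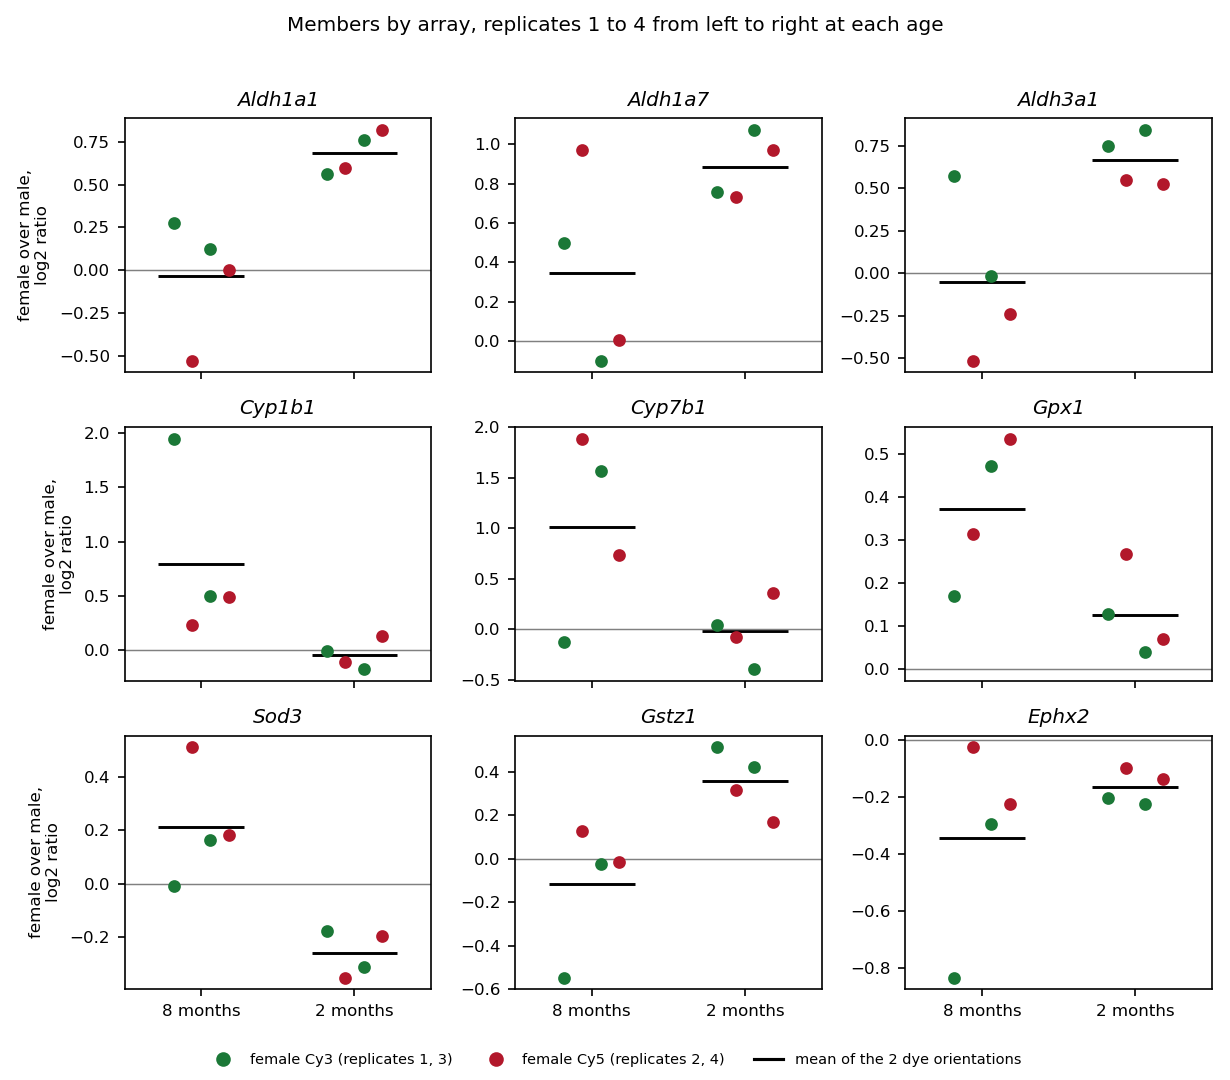
Log2 ratio of female over male (vertical axis, a scale for each panel) on each array for 9 members, with 8 months left and 2 months right in each panel; points are arrays in the order of replicates 1 to 4, coloured by the dye of the female pool, and bars are means of both dye orientations. Aldh1a1, Aldh1a7 and Aldh3a1 sit between 0.52 and 1.07 at 2 months, Gpx1 is above 0 and Ephx2 below 0 on all 8 arrays.

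In bulk hearts, fewer cells of a type and less RNA per cell cannot be told apart, and the table holds ratios and no levels, so no marker could be shown to be near 0 in a pool. At 2 months the pools also differed in genes of tissues that lie beside the heart. All 6 of the 8 thymocyte markers that were tested were higher in the female pool at 2 months, with ratios of 1.92 to 4.48 and a median of 3.41. At 8 months their median was 0.15, or 0.34 from replicates 3 and 4. All 6 of 8 adipocyte and brown fat markers tested were higher at 2 months too, from 0.24 to 2.99 with a median of 1.75. At 8 months their median was -0.044, or -0.022 from replicates 3 and 4. All 3 of 6 lung and airway markers tested were higher at 2 months, from 0.66 to 1.76, while at 8 months Sftpc stood at 3.12 and the other 2 at 0.37 and -0.055. From replicates 3 and 4 the same markers stood at 3.89, 0.31 and 0.11. At 8 months the 7 of 8 heart muscle markers tested lay between -0.66 and 0.047, or -0.31 and 0.074 from replicates 3 and 4. At 2 months they lay between -0.28 and 0.092. The part of these markers in the 2-month ratios of Aldh1a1, Aldh1a7, Aldh3a1 and Adh1 was not tested.

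Of the 12 flavin monooxygenases and cytochromes P450, 9 were tested and none was called by limma over both ages. Cyp1b1, which oxidises oestradiol and arachidonic acid, had 1.95, 0.23, 0.50 and 0.49 at 8 months and -0.012, -0.12, -0.18 and 0.12 at 2 months. Its 8-month arrays were all above the highest 2-month array, and replicate 1 was far above the other 3. The 8-month mean was 0.79 ± 0.78, against -0.045 ± 0.13 at 2 months (SD, n = 4 arrays each), and the difference of 0.84 met the size rule for the ages. Without replicates 1 and 2 the 8-month ratio was 0.50, which is under 1.5-fold, and with the drift removed it was 0.77.

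Cyp7b1, an oxysterol and steroid 7-alpha-hydroxylase, had the largest 8-month ratio of the members, with -0.13, 1.89, 1.56 and 0.73 on replicates 1 to 4, against 0.044, -0.078, -0.40 and 0.36 at 2 months. At 8 months 3 of its arrays were high and replicate 1 was slightly negative, so it did not meet the rule on sign, with 1.01 ± 0.90 at 8 months and -0.017 ± 0.31 at 2 months. It did meet the rule from replicates 3 and 4, at 1.15, together with Akr1c18, where 3.33% of all rows did, and with the drift removed, at 1.06, together with Cyp1b1 and Cyp3a11, where 2.87% of all rows did. Cyp3a11, a broad-range P450 best known from liver, had 1.85, -0.053, 0.40 and 0.22 at 8 months and -0.54, 0.084, -0.016 and 0.19 at 2 months. Its 8-month mean was 0.60, with replicate 1 the highest array. It was 0.31 from replicates 3 and 4 and 0.68 with the drift removed. Beside these 8-month ratios, the means of all 3 of 8 red cell markers tested were positive at 8 months. They ran from 0.62 to 0.84, or 0.77 to 0.88 from replicates 3 and 4. Alas2 was at -0.65 on replicate 2 and Car2 at -0.016 on replicate 1. The means of 6 of 6 neutrophil markers were positive, and of 5 from replicates 3 and 4. Lcn2 was at 2.43, and the others lay between 0.024 for Ngp and 0.57 for S100a9. Ngp, Camp and Mpo had both signs across the 8-month arrays. The 2 of 6 liver markers tested, Apoa1 and Ttr, stood at -0.27 and 0.16 at 8 months and at 0.17 and 0.20 at 2 months. From replicates 3 and 4 Apoa1 was at -0.17 and Ttr at 0.28. The part of these cells in the P450 ratios was not tested.

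Fmo1, a flavin monooxygenase that oxidises nitrogen and sulfur in foreign compounds, had 0.61, -1.42, -0.19 and 0.053 at 8 months and 0.34, 0.57, 0.29 and 0.54 at 2 months. The 2-month arrays were all positive, 0.44 ± 0.14, and the 8-month arrays were spread on both sides of 0. Fmo5 had -0.75, 0.17, -0.11 and -0.13 at 8 months and 0.16, 0.46, -0.15 and 0.45 at 2 months. Cyp4b1, a fatty acid hydroxylase best known from lung, had -0.45, 0.09, 0.059 and -0.12 at 8 months and 0.031, -0.011, 0.15 and -0.077 at 2 months. Neither kept 1 sign at either age. Cyp39a1, Cyp3a13 and Cyp4f13 averaged between 0.015 and 0.033 at 8 months, between -0.24 and 0.087 from replicates 3 and 4, and between -0.13 and 0.15 at 2 months.

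All 13 glutathione S-transferases were tested, and none was called by limma or met the size rule at either age. Their median was -0.12 at 8 months, 0.078 from replicates 3 and 4, and 0.041 at 2 months. At 2 months 10 of the 13 were positive, where 3621 of all 7812 rows were, and 7 kept 1 sign on all 4 arrays, 53.8% against 35.8% of all rows, of which 6 were higher in the female pool. Gsta3, an alpha-class transferase, had 1.00, -1.62, -0.33 and 0.49 at 8 months and 0.44, 0.44, 0.25 and 0.70 at 2 months. Every 2-month array was positive, at 0.46 ± 0.19, while the 8-month arrays ran from strongly negative on replicate 2 to strongly positive on replicate 1. Gstz1, which isomerises maleylacetoacetate in tyrosine breakdown, had -0.55, 0.13, -0.024 and -0.015 at 8 months and 0.51, 0.32, 0.42 and 0.17 at 2 months, with no overlap between the ages.

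Gsta4, which conjugates the lipid aldehyde 4-hydroxynonenal, had -0.21, 1.36, 0.10 and 0.41 at 8 months and -0.084, 0.08, -0.14 and 0.16 at 2 months. Gsta2, another alpha-class transferase, had 0.62, 0.88, -0.0012 and 0.40 at 8 months and -0.053, 0.10, -0.042 and -0.0014 at 2 months. Both leaned positive at 8 months and lay near 0 at 2 months, and replicates 3 and 4 alone gave 0.26 for Gsta4 and 0.20 for Gsta2 at 8 months. Gstm1, the mu-class transferase, had -0.47, 0.75, -0.00048 and 0.23 at 8 months and -0.063, 0.13, -0.047 and 0.13 at 2 months. The pi-class Gstp1 had -0.56, 0.21, 0.11 and 0.027 at 8 months and 0.05, 0.06, 0.039 and 0.015 at 2 months. The arrays of Gstp1 at 2 months lay closer together than those of any other transferase. Gstt1 and Gstt2, the theta class, were negative at 8 months, -0.34 and -0.37, or -0.27 and -0.35 from replicates 3 and 4, and positive at 2 months, 0.11 and 0.16. The other 5, Gstk1, Gstm2, Gstm5, Gsto1 and Gstp3, averaged between -0.27 and 0.32 at 8 months and between -0.078 and 0.23 at 2 months. From replicates 3 and 4 all 5 were positive, from 0.03 for Gstk1 to 0.23 for Gstm2, so Gstm2, Gstm5, Gsto1 and Gstp3 changed sign. Alpha, mu and pi transferases have close copies whose transcripts can share a cDNA probe, so single isoforms are uncertain.

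Gpx1, the cytosolic selenoenzyme that reduces hydrogen peroxide with glutathione and the only glutathione peroxidase analysed here, was positive on all 8 arrays. Its ratios were 0.17, 0.31, 0.47 and 0.54 at 8 months and 0.13, 0.27, 0.041 and 0.071 at 2 months. Replicates 1 to 4 at 8 months averaged 0.37 ± 0.16, against 0.13 ± 0.10 at 2 months (SD, n = 4 arrays each), and limma gave an adjusted p of 0.618 over both ages. The means of the red cell markers described above were also positive at 8 months. At 2 months Alas2 and Car2 stood at 0.18 and 0.47 and Slc4a1 at -0.33. Red cells carry much Gpx1, and that part was not tested.

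The 9 peroxiredoxin and thioredoxin genes had medians of 0.0025 at 8 months, 0.033 from replicates 3 and 4, and 0.0061 at 2 months, and none was called. Prdx1, a cytosolic peroxidase, had -0.14, 0.27, -0.081 and 0.24 at 8 months and -0.87, -0.20, -1.04 and -0.058 at 2 months. All 4 of the 2-month arrays were negative, but they fell in 2 pairs, with strongly negative values where the female pool carried Cy3 and slightly negative ones where it carried Cy5. The mean was 0.073 at 8 months, against -0.54 ± 0.49 at 2 months. Prdx2, abundant in red cells, had 0.21, -0.85, -0.24 and 0.06 at 8 months and 0.019, 0.12, 0.051 and -0.003 at 2 months. Prdx4, the enzyme of the endoplasmic reticulum and the only member on the X chromosome, had 0.97, -1.07, -0.18 and 0.29 at 8 months and -0.16, 0.18, 0.00011 and 0.19 at 2 months. Neither kept 1 sign at either age.

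Txn1, the cytosolic thioredoxin, had -0.93, 1.21, -0.17 and 0.06 at 8 months and 0.16, 0.24, 0.052 and 0.20 at 2 months. Its 2-month arrays were all positive at 0.16 ± 0.082, and its 8-month mean was 0.042. Txn2, the mitochondrial thioredoxin, had 0.24, -1.03, 0.097 and -0.21 at 8 months and 0.064, -0.28, 0.20 and -0.32 at 2 months, with a sign that followed the dye at both ages. Txnrd1, the selenoenzyme that reduces thioredoxin, had 0.10, -1.27, 0.097 and -0.026 at 8 months and 0.011, 0.043, -0.069 and -0.009 at 2 months, so 7 of 8 arrays lay near 0 and 8-month replicate 2 stood apart. Txnl1, a thioredoxin-like protein of the proteasome, kept a positive sign at 8 months, 0.32, 0.67, 0.057 and 0.0096, but not at 2 months, -0.10, 0.096, -0.03 and 0.061. Txndc11 and Txnl4b averaged 0.11 and -0.20 at 8 months, 0.22 and -0.21 from replicates 3 and 4, and 0.12 and -0.035 at 2 months.

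Among the 4 genes of superoxide and catalase enzymes, the means were negative for 3 at 8 months and for all 4 at 2 months, and none was called. Sod3, the extracellular superoxide dismutase of the vessel wall, had -0.0077, 0.51, 0.16 and 0.18 at 8 months and -0.18, -0.35, -0.31 and -0.20 at 2 months. Every 2-month array was negative and below every 8-month array, with means of 0.21 ± 0.22 at 8 months and -0.26 ± 0.086 at 2 months. Sod1, the cytosolic copper and zinc enzyme, had 0.13, -1.04, -0.19 and -0.63 at 8 months and 0.02, -0.36, 0.47 and -0.49 at 2 months, which parted by dye at 2 months, with a Cy5 minus Cy3 difference, divided by 2, of -0.33. Sod2, the mitochondrial manganese enzyme, had -1.36, 0.29, 0.012 and -0.14 at 8 months and 0.0088, -0.14, 0.074 and -0.11 at 2 months, and apart from 8-month replicate 1 its arrays lay between -0.14 and 0.29. Catalase, the peroxisomal enzyme, had 0.59, -1.52, -0.054 and -0.14 at 8 months and 0.07, -0.13, 0.20 and -0.17 at 2 months, and its 8-month extremes were replicates 1 and 2.

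Hmox1, the inducible enzyme of heme breakdown, had -0.094, -1.07, -0.22 and 0.17 at 8 months and -0.36, -0.21, -0.54 and -0.13 at 2 months. It was negative on 7 of 8 arrays, with -0.31 ± 0.12 over both ages and an adjusted p of 0.475 by limma. From replicates 3 and 4 the 8-month ratio was -0.027. The means of all 5 of 7 macrophage markers tested were also negative at 2 months, from -0.80 to -0.25, and 3 of the 5 kept 1 sign. C1qa, at -0.80, had -0.12 and 0.16 where the female pool carried Cy3 and -1.40 and -1.83 where it carried Cy5. At 8 months 4 of 5 were positive, and all 5 were from replicates 3 and 4. Macrophages that clear red cells hold much Hmox1, and their part was not tested. Nqo1, the quinone reductase that uses NADPH, had -0.57, 1.09, -0.27 and -0.19 at 8 months and -0.096, -0.14, 0.009 and -0.05 at 2 months. Its relative Nqo2 had -0.24, -0.24, -0.11 and 0.12 at 8 months and -0.27, -0.083, -0.87 and 0.002 at 2 months. Neither kept 1 sign at either age, and Nqo2 had a single low array, replicate 3 at 2 months.

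The 4 carboxylesterases and epoxide hydrolases were all negative at 8 months, from -0.41 for Ces1d to -0.058 for Ces3b, and 3 of the 4 were positive at 2 months. Ephx2, the soluble epoxide hydrolase that breaks down vasodilator epoxy fatty acids, was negative on all 8 arrays. Its values were -0.83, -0.026, -0.30 and -0.23 at 8 months and -0.20, -0.10, -0.23 and -0.14 at 2 months, and they averaged -0.35 ± 0.34 at 8 months and -0.17 ± 0.059 at 2 months, with an adjusted p of 0.585 by limma over both ages. Ephx1, the microsomal enzyme, had -0.71, 0.11, -0.16 and -0.017 at 8 months and 0.16, 0.046, 0.12 and -0.24 at 2 months, with both signs at each age. Ces3b had -0.74, 1.16, -0.61 and -0.034 at 8 months and -0.033, 0.17, 0.39 and 0.81 at 2 months. Ces1d, a lipase and esterase of liver and fat, had 0.17, -1.15, -0.30 and -0.36 at 8 months and 0.12, 0.0017, 0.081 and 0.032 at 2 months.

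Of the conjugating families, 1 of 4 glucuronosyltransferase and sulfotransferase genes was tested. Ugt2b36 had 0.31, -1.12, -0.029 and -0.084 at 8 months and 0.14, 0.26, 0.13 and 0.29 at 2 months, positive on every 2-month array at 0.21 ± 0.082. Sult1d1, a catecholamine sulfotransferase, had 0.42, 0.55, 1.01 and 1.70 at 2 months, a mean of 0.92 ± 0.58, with 1 measured array at 8 months at -0.017. Sult1b1 and Sult3a1 were measured on 3 arrays at 2 months and on at most 1 at 8 months, as were Akr1c20 and Cyp4a14, while Cyp1a2 and Cyp3a59 had 2 arrays at 8 months. Cyp4a14, a fatty acid omega-hydroxylase, was negative on its 3 arrays at 2 months, with a mean of -0.89 ± 0.53. It had -0.35 and -0.52 where the female pool carried Cy3 and -1.35 where it carried Cy5. These 7 members entered no fit or size count of the 66 tested members.

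The ABCB transporters had medians of -0.055 at 8 months, -0.019 from replicates 3 and 4, and 0.0023 at 2 months over 4 genes, and none was called. Abcb1a, a P-glycoprotein of the blood vessel endothelium, had -0.42, 1.45, 0.25 and -0.21 at 8 months and 0.41, 0.16, 0.48 and 0.23 at 2 months. All 4 of its 2-month arrays were positive, and over both ages it was 0.30 ± 0.12 with an adjusted p of 0.49 by limma. The means of the 5 of 6 endothelial markers tested were all negative at 8 months, from -0.69 to -0.19, or -0.47 to -0.11 from replicates 3 and 4. At each age 2 of the 5 kept 1 sign on all 4 arrays. At 2 months 4 of 5 were negative, and their part was not tested. Its copy Abcb1b had -0.28, -0.92, -0.032 and -0.0054 at 8 months, all negative, and 0.10, -0.22, 0.12 and -0.23 at 2 months; the 2 genes are close in sequence and a cDNA probe can bind both transcripts. Abcb4, the phosphatidylcholine floppase, had -0.054, 0.87, 0.025 and -0.062 at 8 months and -0.069, -0.34, -0.08 and -0.40 at 2 months, so every 2-month array was below every 8-month array. Abcb8, in mitochondria, averaged -0.31 at 8 months, -0.22 from replicates 3 and 4, and 0.064 at 2 months. Fmod, the matrix proteoglycan fibromodulin, was taken by its first 3 letters and is no monooxygenase; it had -1.33, 0.71, -0.20 and -0.29 at 8 months and -0.46, -0.38, -0.21 and -0.046 at 2 months, negative on 7 of 8 arrays, with an adjusted p of 0.524 by limma.

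**Figure D4:**
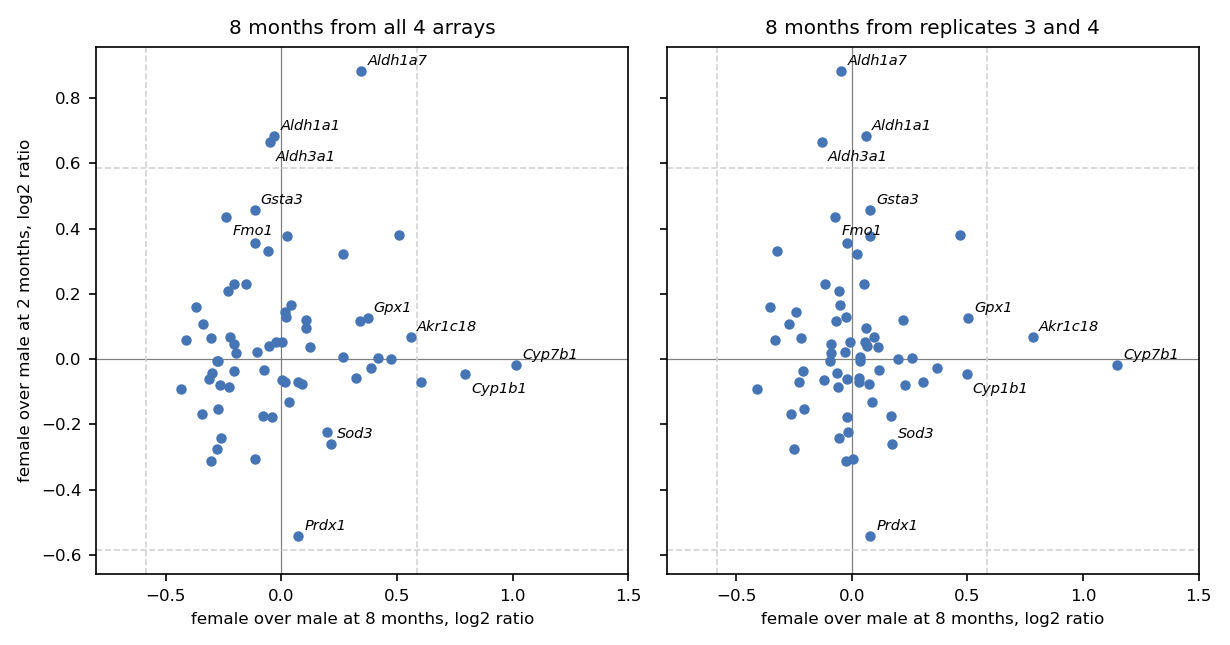
Female over male log2 ratio of each tested member at 2 months (vertical axis) against 8 months (horizontal axis), with the 8-month value from all 4 arrays left and from replicates 3 and 4 right; dashed lines mark 1.5-fold. Aldh1a1, Aldh1a7 and Aldh3a1 lie above the dashed line at 2 months in both panels, and Cyp7b1 lies to the far right in both.

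Between the ages, 2 members met the size rule, where the difference is at least 1.5-fold and the arrays do not overlap: Aldh1a1 at -0.72 and Cyp1b1 at 0.84 (8 minus 2 months). This is 3.03% of the members, where 3.29% of all rows met it. In all, 5 members had arrays that did not overlap between the ages, Gstz1, Sod3, Aldh1a1, Cyp1b1 and Abcb4, or 7.58% against 5.93% of all rows. With 1 pool of each sex and age, the difference of the ages had no test across animals. From replicates 3 and 4, 6 of 67 members met the rule, namely Akr1c18, Aldh1a1, Aldh1a7, Aldh3a1, Ces3b and Cyp7b1, where 6.03% of all rows did. With the drift removed 6 of 66 members met it, namely Aldh1a7, Aldh3a1, Cyp1b1, Cyp7b1, Fmo1 and Gstt2, where 4.62% of all rows did.

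**Figure D5:**
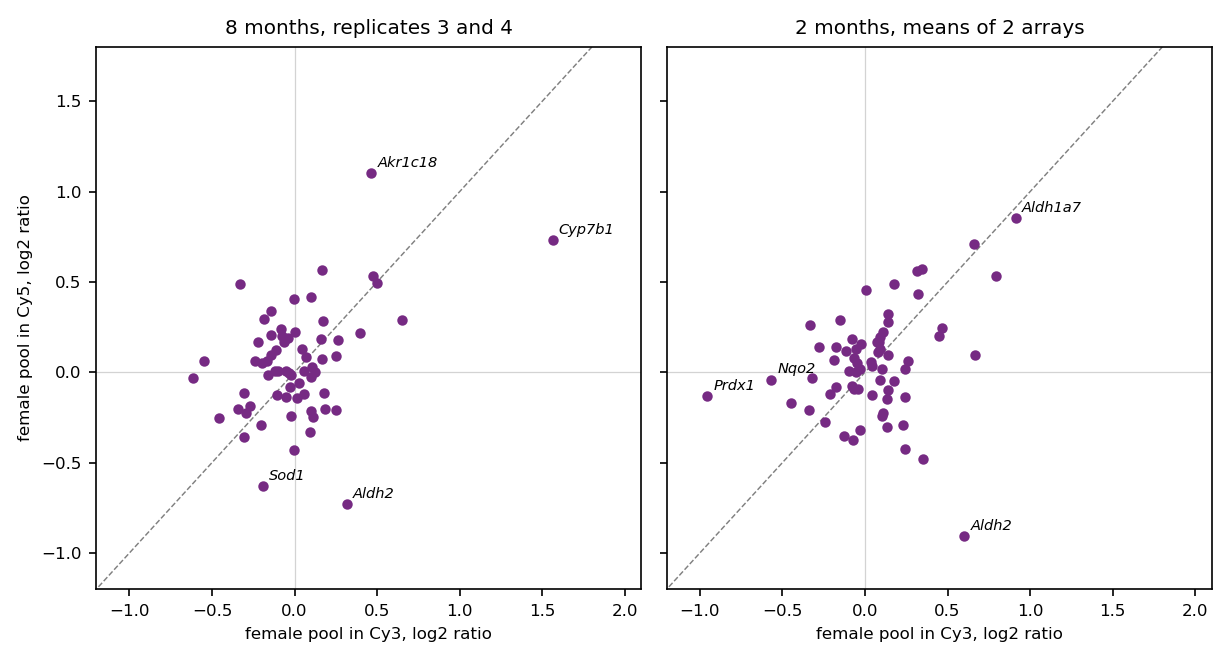
Female over male log2 ratio of each tested member with the female pool in Cy5 (vertical axis) against the ratio with it in Cy3 (horizontal axis), from 8-month replicates 3 and 4 (left) and from means of 2 arrays at 2 months (right); the dashed line marks equality. Aldh2 lies at lower right in both panels, with 0.60 in Cy3 and -0.91 in Cy5 at 2 months, while Aldh1a7 at 2 months lies near the line at 0.91 and 0.85.

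The dye part, which is the Cy5 mean minus the Cy3 mean divided by 2, was larger in size than the mean over both orientations in 43 of 66 members at 8 months, 65.2% against 65.4% of all rows, and in 27 of 66 at 2 months, 40.9% against 44.4% of all rows. From replicates 3 and 4 it was larger in 32 of 66 members, 48.5% against 51.7% of rows. Among the tested members the largest dye parts at 2 months were those of Aldh2, Aldh1b1, Prdx1 and Sod1, from -0.75 for Aldh2 to 0.41 for Prdx1, the 1 of the 4 that was positive.

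Further genes of the same pathways, taken as lists, gave no call by limma over both ages. Of 22 genes of glutathione synthesis and recycling 8 were tested, with medians of -0.031 at 8 months, -0.030 from replicates 3 and 4, and 0.026 at 2 months, and Chac1, which degrades glutathione, was lower by the size rule at 8 months, -0.61. Its arrays were -0.21, -0.94, -0.46 and -0.83 at 8 months, against 0.20, -0.0078, -0.18 and 0.075 at 2 months, so the ages did not overlap. Of 8 genes of NADPH supply 5 were tested. The median of their 8-month means was -0.29, or -0.23 from replicates 3 and 4, against 0.27 for the younger pools. All 5 of the 8-month means were negative, but Taldo1 stood at 0.016 from replicates 3 and 4. Only 1 of the 5, Idh1, kept 1 sign on every 8-month array. Tkt, the pentose phosphate transketolase, had 0.46, -1.95, -0.20 and -0.55 at 8 months, against 1.20, 0.66, 1.26 and 0.18 at 2 months, and met the size rule at 2 months at 0.83.

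Of 15 NRF2 regulators and further targets 8 were tested, with medians of -0.28 at 8 months, -0.21 from replicates 3 and 4, and 0.084 at 2 months. The metallothioneins Mt1 and Mt2, which bind zinc and scavenge radicals, met the size rule at 2 months at 0.64 and 0.75, against 0.20 and 0.32 at 8 months and 0.0091 and 0.42 from replicates 3 and 4. Nfe2l1, a factor related to NRF2, was lower by the size rule at 8 months at -0.60, -0.44 from replicates 3 and 4, with an adjusted p of 0.296 by limma over both ages. Its 8-month arrays parted by dye, with -0.074 and -0.055 where the female pool carried Cy3 and -1.46 and -0.83 where it carried Cy5. Of the 9 xenobiotic receptors and partners, Rxra and Ppara were tested and averaged -0.79 and -0.0073 at 8 months, -0.55 and -0.11 from replicates 3 and 4, and -0.51 and -0.19 at 2 months. The selenoprotein list gave 2 tested genes of 12, and the other ABC efflux list 6 of 8 with medians of 0.10 at 8 months, 0.033 from replicates 3 and 4, and -0.052 at 2 months. No gene of the last 3 lists met the size rule at either age.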

How the data were processed

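RNA of female and male C57BL/6 hearts was compared on 8 Agilent cDNA arrays with 2 dyes. The deposited values are log10 ratios, made by the authors with Feature Extraction 7.1.1, per the labels; the sources used here name no later normalization. They have the form of log10 Cy5 over Cy3, limited at 2 and -2. They were rescaled to log2 with the female pool on top, and an exact 0 was read as no measurement, since intensities were not used here and signal over background is unknown. Every deposited column was mapped to a sample. Genes were named by platform annotation and brought up to date with RefSeq IDs (GRCm38.p6), which matched 72 of the 73 members; Adh6b kept its platform symbol, and 2936 rows without a single symbol stayed unnamed.

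The arrays of an age repeat 1 pair of pools, so they were averaged to 1 value, as the mean of both dye orientations, where at least 3 arrays had a value. The SDs given for arrays are technical. Rows of 1 gene were averaged. limma 3.58.1 (lmFit and eBayes, two-sided, intercept only, in R 4.3.3) tested the mean of the 2 age values of all 7812 rows with Benjamini-Hochberg adjustment, and the code was tested on simulated data. The p-values rest on n = 2 pairs of pools. The drift along the probe order was measured as a running median. Promoters were aligned with Biopython 1.88.

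The members, the gene lists and the cell type markers were chosen with earlier results of these data known. The naming rule gave array values for 36 members: those past a size rule or called, the 2 largest and the smallest mean over both ages in each role, and a list of best-known enzymes. The other members given array by array were chosen after their values were seen. The alternatives were centring or scaling the arrays, removing the drift, 8-month values from replicates 3 and 4, keeping exact 0, no filter, leaving out each array, rows kept apart, platform symbols, a 2-fold limit and limma over single arrays.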

Additional observations from a re-analysis of the deposited data

Results flagged for a closer look

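In 3 of 72 sets of 4 arrays, each set being 1 described member at 1 age, a single array stood apart from the other 3 by the gap test of Dixon; chance alone gives about 1 in 20. All 3 were at 8 months, on the arrays whose ratios drifted along the probe order. Cyp1b1 was at 1.95 on replicate 1, and its other 8-month arrays were at 0.23, 0.50 and 0.49. Txnrd1 was at -1.27 on replicate 2, against 0.10, 0.097 and -0.026 on the others. Abcb4 was at 0.87 on replicate 2, where the other 8-month arrays lay between -0.062 and 0.025. With the drift removed, the 8-month means were 0.77 for Cyp1b1, -0.18 for Txnrd1 and 0.032 for Abcb4.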

How the results depend on the processing

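No member was called by limma over both ages under any alternative, with lowest adjusted p-values of 0.126 to 0.645 over them. Among all rows the calls were 7, but 100 without 8-month replicate 1, 104 without 8-month replicate 4, 1 with the drift removed or from replicates 3 and 4, and 0 with exact 0 kept. limma over the 8 single arrays, which repeat the same pools, also called 0 members, both without a block (lowest adjusted p 0.183) and with a replicate block (lowest adjusted p 0.297). Same-numbered arrays of the ages share a dye orientation and no RNA. Counts by the size rule depended on the settings, and the cause was not tested. At 8 months the count of 1 became 3 with the drift removed, 2 from replicates 3 and 4, 0 at 2-fold, and 1 to 3 with an array left out: without replicate 1 the members were Aldh3b2 and Cyp7b1. At 2 months the count of 3 became 5 with arrays scaled to 1 spread, with Gsta3 and Prdx1 added, 0 at 2-fold, 4 with exact 0 kept or no filter, where Sult1d1 joined, and 3 to 4 with an array left out. Between the ages the count of 2 became 5 with scaling, 6 with the drift removed, 6 from replicates 3 and 4, 0 at 2-fold, 3 with Sult1d1 as above, and 2 to 6 with an array left out. The members' median was 0.012 to 0.029 at 2 months and -0.073 to 0.011 at 8 months with an array left out. Of the values of described members, 576 of 576 at 8 months stayed within 1 array SD, where that SD was wide, and 572 of 576 at 2 months did. These counts do not measure stability. Leaving out 1 array, or using replicates 3 and 4, cannot move a mean by the SD of its 4 arrays. Leaving out an array of the other age cannot change a value at all. At 2 months scaling moved Aldh1a1 to 0.89, Aldh1a7 to 1.15 and Aldh3a1 to 0.89, and removing the drift moved Gstp1 to 0.016. Signal over background was unknown, and the number of pools limits every value.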

Other observations

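Some regulators of these enzymes had ratios that parted by dye at 2 months, as Aldh2 did. Keap1, which holds NRF2 in the cytosol, had 0.20 and 0.44 where the female pool carried Cy3 and -1.15 and -1.42 where it carried Cy5 at 2 months, and a ratio over both orientations of -0.36 at 8 months and -0.48 at 2 months. Nfe2l1 had 0.019 and 0.26 in Cy3 and -0.95 and -1.41 in Cy5 at 2 months. Rxra, the partner of several nuclear receptors, had 0.018 and 0.13 in Cy3 and -0.78 and -1.40 in Cy5 at 2 months. The metallothioneins did not part in this way at 2 months: Mt2 had 0.70 and 0.65 in Cy3 and 0.74 and 0.90 in Cy5.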
